A study of Mus musculus with 50 samples.

Results

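The transcriptome of the old mouse kidney was compared between animals given 3C and animals given DMSO. The comparison used the 8 RNA-seq libraries labelled as kidney of treated or control old mice, out of 50 samples in the series. All 8 came from C57BL/6 mice aged 20 to 21 months. DMSO, the solvent control, had 4 libraries and 3C had 4 libraries. What 3C is, its dose, its route and its duration are not given in the sources used here, and the study's text describes neither group. No further treatment or allele is named for either group. The sources do not say whether replicates were separate mice, so p-values measure the spread between these libraries. Values were set beside the same treatment in old liver (8 libraries) and beside untreated kidney of young (2.5 months) and old (23 to 25 months) mice (4 libraries each).

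In the aging kidney, immune cells gather in the tissue, antigen presentation and matrix genes become more active, and the tubules lose part of their capacity for fuel oxidation. The kidney tubule runs largely on fatty acids, which are oxidized under the control of the nuclear receptor PPAR-alpha. MHC class II molecules display peptides to helper T cells and are made mainly by macrophages, dendritic cells and B cells. These processes are the background against which the lists of genes below were read.

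Library totals ran from 14503770 to 19958460 counts with DMSO and from 17521770 to 21569995 counts with 3C. The exact permutation test over samples gave p = 0.229 for the totals and p = 0.400 for the share of reads outside genes (17.0% to 18.8% with DMSO and 17.7% to 19.1% with 3C; two-sided, smallest possible p 0.0286). Defining kidney genes were abundant in every library, among them Umod, the main urinary protein (3552 to 4365 CPM with DMSO and 3696 to 4009 CPM with 3C), and Lrp2, the endocytic receptor of the proximal tubule (2243 to 2874 CPM with DMSO and 2528 to 2797 CPM with 3C). Levels below are in CPM, a gene's count as a share of its library after scaling for library size and composition.

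The test across all genes called none of them. Of 14974 genes, 0 (0%) had an adjusted p under 0.05 by edgeR's quasi-likelihood test, the smallest adjusted p being 0.138. At an unadjusted p under 0.05 there were 1786 genes (11.9%), 1062 of them lower with 3C (7.09%) and 724 higher (4.84%). DESeq2 called 158 genes lower (1.20% of the 13220 with an adjusted p) and 73 higher (0.552%), and 5 of the 158 and none of the 73 passed a fold of 2. In 575 genes (3.84%) every 3C library lay below every DMSO library, and in 464 genes (3.10%) every one lay above. The log2 fold change was below 0 in 7283 genes (48.6%). Removing from each library its trend with transcript length and base composition turned the split at an unadjusted p under 0.05 to 774 lower and 1088 higher, so that 41.6% rather than 59.5% were lower, and moved the median of all genes from 0.00 to 0.04. Since no gene passed the edgeR test, the sections below give levels, counts of genes and list medians, and no single gene is called changed. Counts over a list are over its members that passed the filter on low counts, which was 10 of 11 for MHC class I, 14 of 16 for T and NK cells, 13 of 14 for B and plasma cells, 3 of 11 for neutrophils, 14 of 15 for complement, 18 of 20 for the TNF response, 10 of 11 for AP-1 and 8 of 9 for the urothelium. The MHC class II, macrophage, collagen and matrix, and fatty acid oxidation lists were tested whole.

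Without 3C replicate 2, 25 genes were called lower and 4 higher by edgeR, the only left-out library with more than 1 call. Of these 25 genes, H2-Aa, Cd74, H2-Ab1, H2-Eb1, C1qa, Lyz2, Col1a1 and Marcksl1 are described below, and the 4 higher genes were Fnip2, Gpam, Dpyd and Oxgr1. Without 3C replicate 1, 1 gene was called, the ring finger gene Rnf24, at a lower level with 3C, whereas its log2 fold change over all 8 libraries was 0.09 ± 0.57. The genes named in this paragraph and those not covered by the naming rule were chosen after their values were seen.

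In each of 3 libraries a set of genes stood apart from the other 7 libraries (plot of clock, immediate early and lymphocyte genes). In 3C replicate 1 genes of the circadian clock stood apart. Dbp, a clock output factor that peaks opposite to Arntl, stood at 3.01, 19.4, 7.24 and 4.83 CPM in the DMSO libraries and 138, 2.40, 4.81 and 8.76 CPM in the 3C libraries. Arntl, the activator at the core of the clock, stood at 42.6, 19.7, 27.1 and 35.6 CPM in the DMSO libraries and 2.73, 39.98, 37.7 and 28.1 CPM in the 3C libraries. In 3C replicate 1 Dbp was thus high and Arntl low, outside the range of the other libraries. The clock repressors Per3 (13.95, 25.8, 17.9 and 17.9 CPM with DMSO and 86.6, 11.9, 13.8 and 13.7 CPM with 3C) and Ciart (1.36, 1.83, 1.01 and 1.496 CPM with DMSO and 16.4, 1.38, 1.98 and 2.03 CPM with 3C) were high in the same library. Npas2, a relative of Clock that pairs with Arntl, was low there (35.7, 13.5, 21.6 and 22.4 CPM with DMSO and 1.01, 28.8, 31.2 and 22.6 CPM with 3C). The time of tissue collection is not given in the sources used here.

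**Figure D1:**
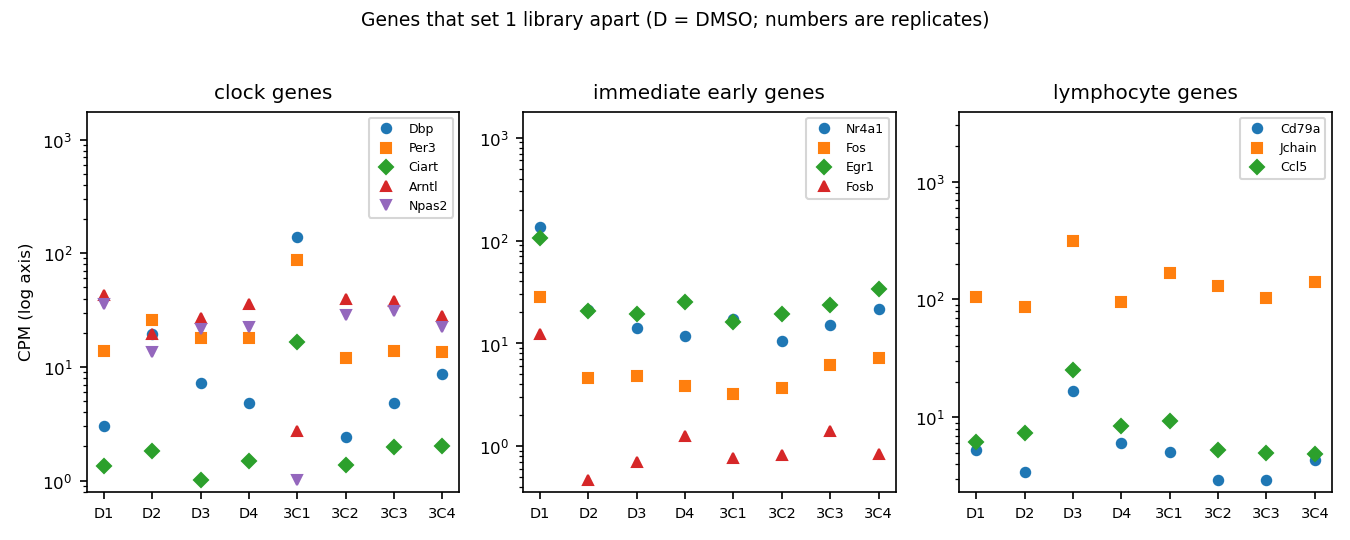
Level of 12 genes in each of the 8 kidney libraries, in CPM on a log axis. Libraries D1 to D4 are DMSO replicates and 3C1 to 3C4 are 3C replicates, and each point is 1 gene in 1 library. Dbp reached 138 CPM in 3C replicate 1, Nr4a1 reached 135 CPM in DMSO replicate 1, and Cd79a reached 16.9 CPM in DMSO replicate 3.

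In DMSO replicate 1 the immediate early genes, which turn on within minutes of a stimulus or of handling, were high. Nr4a1 stood at 135, 21.2, 14.1 and 11.7 CPM in the DMSO libraries and 17.1, 10.6, 14.99 and 21.5 CPM in the 3C libraries. Fos, the partner of JUN in AP-1, stood at 28.5, 4.603, 4.81 and 3.85 CPM in the DMSO libraries and 3.21, 3.68, 6.11 and 7.25 CPM in the 3C libraries. Egr1 (106, 20.5, 19.5 and 25.3 CPM with DMSO and 16.2, 19.2, 23.7 and 34.2 CPM with 3C) and Fosb (12.5, 0.474, 0.712 and 1.27 CPM with DMSO and 0.772, 0.817, 1.41 and 0.848 CPM with 3C) had the same high library. That library also had the lowest Xist, the RNA of the inactive X chromosome (371, 868, 835 and 884 CPM with DMSO and 874, 907, 919.8 and 935 CPM with 3C), while the Y-linked genes Ddx3y, Kdm5d, Uty and Eif2s3y had no count in any of the 8 libraries.

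In DMSO replicate 3 genes of lymphocytes were high. Cd79a, which signals for the B cell receptor, stood at 5.32, 3.45, 16.9 and 6.098 CPM with DMSO and 5.11, 2.91, 2.94 and 4.38 CPM with 3C, and Jchain, the joining chain of secreted antibodies, at 106, 86.4, 312 and 95.7 CPM with DMSO and 169, 129.7, 103 and 142 CPM with 3C. Ccl5, a chemokine made by T cells, stood at 6.17, 7.38, 25.1 and 8.399 CPM with DMSO and 9.32, 5.26, 4.98 and 4.899 CPM with 3C. The main list results below are given with and without these 3 libraries, the latter with 2 DMSO and 3 3C libraries.

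MHC class II genes were lower with 3C, with the groups apart in 4 of 10 members. The median log2 fold change of the 10 genes was −0.52, or −30.2% in level, against 0.00 over all genes tested. All 10 lay below 0, 8 had an unadjusted p under 0.05, and DESeq2 called 6. Over all genes 3.84% were apart in the lower direction, 7.09% were lower at an unadjusted p under 0.05 and DESeq2 called 1.20% lower. H2-Aa (GRCm38 chromosome 17, 34282744 to 34287823), the alpha chain of a class II molecule, stood at 307, 354, 363 and 349 CPM in the DMSO libraries and 214, 268, 213 and 221 CPM in the 3C libraries. All 3C libraries lay below all DMSO libraries, 3C replicate 2 was the nearest, and the log2 fold change was −0.58 ± 0.09 (SE; edgeR adjusted p = 0.138, DESeq2 adjusted p = 1.83e-06). Cd74, the invariant chain that escorts class II molecules, stood at 592, 700.2, 735 and 667 CPM in the DMSO libraries and 443, 545, 394 and 429.9 CPM in the 3C libraries, also with no overlap, at a log2 fold change of −0.57 ± 0.10. H2-Eb1, a beta chain, stood at 327, 407, 416 and 375 CPM in the DMSO libraries and 252, 316, 232 and 258 CPM in the 3C libraries (log2 fold change −0.53 ± 0.10). H2-Ab1, the beta chain that pairs with H2-Aa, stood at 337, 441, 409.7 and 392 CPM in the DMSO libraries and 266, 349, 238 and 255 CPM in the 3C libraries, where 3C replicate 2 lay above DMSO replicate 1 (log2 fold change −0.51 ± 0.12).

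Ciita, the coactivator that switches class II genes on, had levels of 14.1, 16.5, 21.1 and 19.6 CPM with DMSO and 13.4, 14.4, 10.8 and 11.9 CPM with 3C, with 3C replicate 2 just above the lowest DMSO library. H2-DMa, which loads peptides onto class II molecules, had levels of 26.1, 33.3, 30.5 and 30.6 CPM with DMSO and 22.4, 25.8, 19.6 and 18.4 CPM with 3C and no overlap. H2-DMb2, its partner, was low and uneven at 3.86, 6.63, 13.7 and 6.33 CPM with DMSO and 4.87, 2.81, 1.53 and 2.73 CPM with 3C, and reads shared with its close copy H2-DMb1 make both uncertain. H2-DMb1 (29.96, 51.9, 36.9 and 46.4 CPM with DMSO and 34.7, 40.5, 27.1 and 35.7 CPM with 3C) and H2-Ob (5.17, 5.14, 12.1 and 4.72 CPM with DMSO and 6.59, 3.06, 4.07 and 5.37 CPM with 3C), a chain that restrains peptide loading, overlapped between the groups and were the members whose unadjusted p was above 0.05. Without the 3 libraries that stand apart the median was −0.57, with 10 of 10 below 0. The bulk tissue cannot tell fewer cells of a type from less RNA per cell, and this holds for every list of cell type genes that follows.

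The promoters of H2-Aa and H2-Eb1, both members with no overlap, hold the letters of the Y box, the element of class II promoters that NF-Y binds. They are shown with the promoter of Pdk4, which was higher with 3C and holds the same letters. Windows run from 250 bases before the start of transcription to 50 bases after it, from RefSeq on GRCm38.p6, each 5′ to 3′ along its gene, with CTGATTGG in capitals.
H2-Aa (chr17:34287774-34288073, minus strand, box 51 bases before the start): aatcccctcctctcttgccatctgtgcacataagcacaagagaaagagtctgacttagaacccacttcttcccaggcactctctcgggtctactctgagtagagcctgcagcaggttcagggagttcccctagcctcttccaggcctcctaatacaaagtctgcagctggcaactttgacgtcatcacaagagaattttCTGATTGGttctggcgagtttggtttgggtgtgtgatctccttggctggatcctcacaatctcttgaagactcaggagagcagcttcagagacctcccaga
H2-Eb1 (chr17:34305617-34305916, plus strand, box 62 bases before the start): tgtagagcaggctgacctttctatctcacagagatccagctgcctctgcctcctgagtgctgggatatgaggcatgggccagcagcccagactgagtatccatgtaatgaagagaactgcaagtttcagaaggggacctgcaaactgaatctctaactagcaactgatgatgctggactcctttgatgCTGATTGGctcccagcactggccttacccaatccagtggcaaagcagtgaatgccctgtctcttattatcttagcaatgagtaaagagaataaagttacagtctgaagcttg
Pdk4 (chr6:5496229-5496528, minus strand, box 134 bases before the start): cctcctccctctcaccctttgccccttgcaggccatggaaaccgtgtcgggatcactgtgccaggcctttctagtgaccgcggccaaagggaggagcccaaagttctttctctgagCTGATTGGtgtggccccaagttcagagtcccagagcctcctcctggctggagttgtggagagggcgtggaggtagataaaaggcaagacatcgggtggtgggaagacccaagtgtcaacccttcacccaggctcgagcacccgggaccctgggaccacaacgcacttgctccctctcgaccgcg
Read on both strands, CTGATTGG lies in 4.10% of all 32851 promoter windows. It lies in 3 of the 7 class II genes with a window (H2-Oa is the third) and in 3 of the 20 genes of the fatty acid oxidation list with one (Pdk4, Acaa1b and Etfdh). The letters are thus found at genes lower with 3C and at genes higher with 3C, and a match is a description of the window only.

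**Figure D2:**
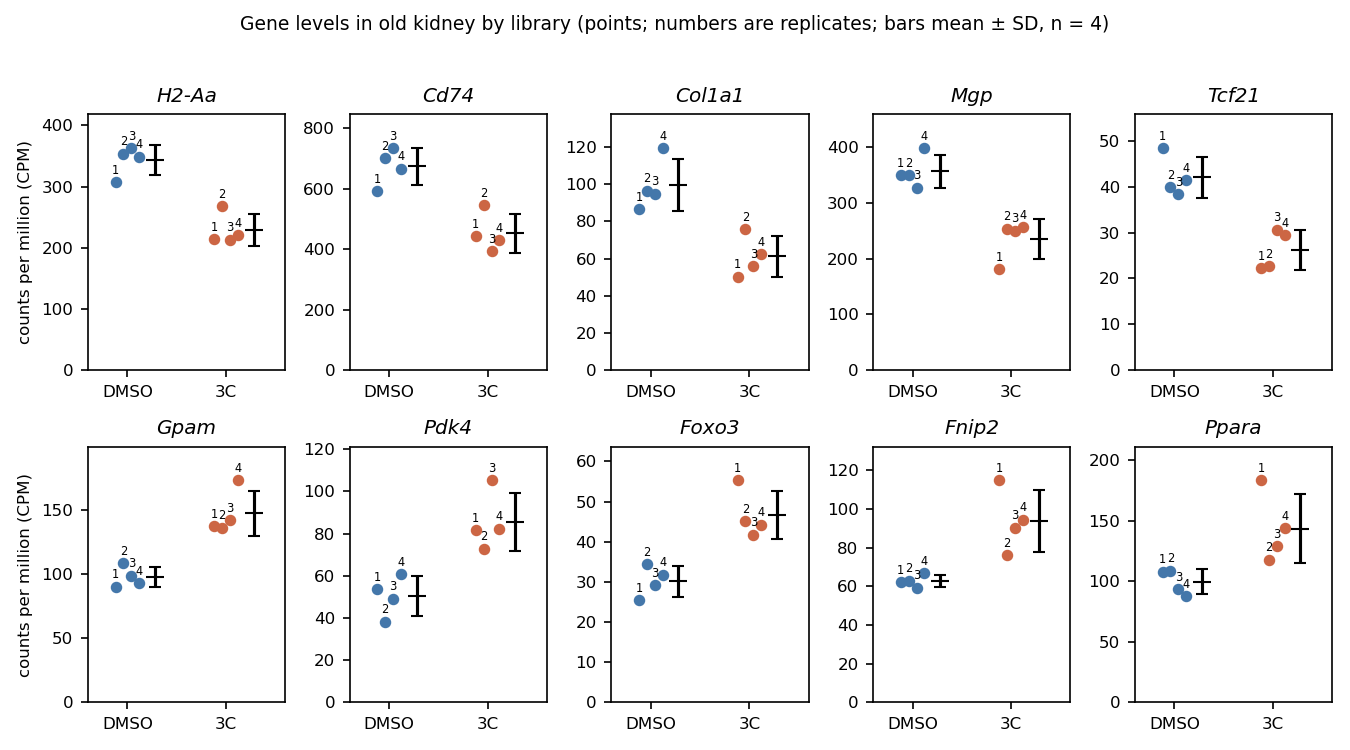
Levels of 10 genes in CPM in each of the 4 DMSO and 4 3C libraries (points, numbered by replicate), with mean ± SD beside them. In each of the 10 genes every 3C library lies on the same side of every DMSO library, lower for H2-Aa, Cd74, Col1a1, Mgp and Tcf21 and higher for Gpam, Pdk4, Foxo3, Fnip2 and Ppara.

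Genes of macrophages followed the same direction. All 16 lay below 0, with a median of −0.54, 11 had an unadjusted p under 0.05, DESeq2 called 3 and the groups did not overlap in 3, against the same 7.09%, 1.20% and 3.84% of all genes. Lyz2, the lysozyme of macrophages, stood at 172, 172, 220 and 182 CPM in the DMSO libraries and 78.96, 156, 89.01 and 116 CPM in the 3C libraries, with no overlap, although 3C replicate 2 came close to the DMSO libraries (log2 fold change −0.76 ± 0.18). C1qa, a chain of the complement starter C1q, stood at 85.3, 101, 105 and 96.02 CPM in the DMSO libraries and 61.03, 87.05, 57.6 and 61.3 CPM in the 3C libraries, where 3C replicate 2 alone reached the DMSO range (log2 fold change −0.54 ± 0.12). Csf1r, the receptor that macrophages need for survival, overlapped between the groups (176, 151, 168 and 183 CPM with DMSO and 133, 166, 148 and 157 CPM with 3C; log2 fold change −0.17 ± 0.08), the value closest to 0 in the list. Spi1, the ETS factor that directs macrophage development, stood at 14.2, 15.1, 15.6 and 11.97 CPM in the DMSO libraries and 9.202, 11.3, 7.47 and 9.28 CPM in the 3C libraries, with no overlap (log2 fold change −0.61 ± 0.14). Inpp5d, a phosphatase that dampens signalling in blood cells, stood at 21.3, 21.6, 23.8 and 23.3 CPM in the DMSO libraries and 15.4, 17.4, 15.2 and 16.4 CPM in the 3C libraries, also with no overlap (log2 fold change −0.48 ± 0.08). Without the 3 libraries that stand apart the median of the list was −0.50, with 16 of 16 below 0. The summed level of the 16 genes was 681 to 769 CPM with DMSO and 423 to 661 CPM with 3C.

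Other immune lists lay below 0 as well, apart from the 3 neutrophil markers, whose median was −0.04 and 0.75 without the 3 libraries. For T and NK cells 14 of 14 genes lay below 0, 8 had an unadjusted p under 0.05 and 2 had groups apart. Over all genes 7.09% were lower at that threshold and 3.84% were apart in the lower direction. The T and NK cell median was −0.78, with −0.66 without the 3 libraries and −0.36 without DMSO replicate 3 alone. For B and plasma cells it was −1.01, but −0.08 without DMSO replicate 3 and −0.43 without the 3 libraries, so the size of this median rests on DMSO replicate 3. The 10 genes of MHC class I and antigen processing, which show peptides to killer T cells, had a median of −0.44, and the 27 interferon-induced genes one of −0.34. Both had every member below 0, 8 and 7 members at an unadjusted p under 0.05, and medians of −0.61 and −0.59 without the 3 libraries. Without DMSO replicate 2 alone these medians were −0.29 and −0.17. The groups were apart in 0 of the 10 MHC class I genes and in 2 of the 27 interferon-induced genes. Complement genes had 11 of 14 below 0 (median −0.40, the same without the 3 libraries and −0.61 without 3C replicate 2, 8 at an unadjusted p under 0.05). Among these, Serping1, the inhibitor of C1, had levels of 206, 192, 176 and 209 CPM with DMSO and 93.9, 163, 149 and 128 CPM with 3C, with no overlap, while Cfb, a factor of the alternative pathway, was above DMSO in every 3C library by a narrow margin (369.5, 369, 350.1 and 322 CPM with DMSO and 392, 392, 370.2 and 382 CPM with 3C). The 18 TNF and NF-kB response genes were all below 0 (median −0.29, −0.17 without the 3 libraries).

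The AP-1 family, the factors built from FOS and JUN proteins, had a median of −0.33, with 9 of 10 below 0. Without DMSO replicate 1 it was 0.04, and without the 3 libraries 0.06. The immediate early genes likewise went from −0.28 to 0.02 without DMSO replicate 1. The direction of both lists therefore turned when that single library was left out. Junb, an AP-1 member, overlapped between the groups (78.5, 48.9, 55.6 and 57.5 CPM with DMSO and 39.01, 49.1, 55.96 and 55.7 CPM with 3C). Of the 11 inflammation genes that the study names, chosen there on the untreated young and old samples, 10 were tested and Fcrl5 was below the count filter. The 10 lay below 0, with a median of −0.54 (−0.51 without the 3 libraries and −0.28 without DMSO replicate 3).

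**Figure D3:**
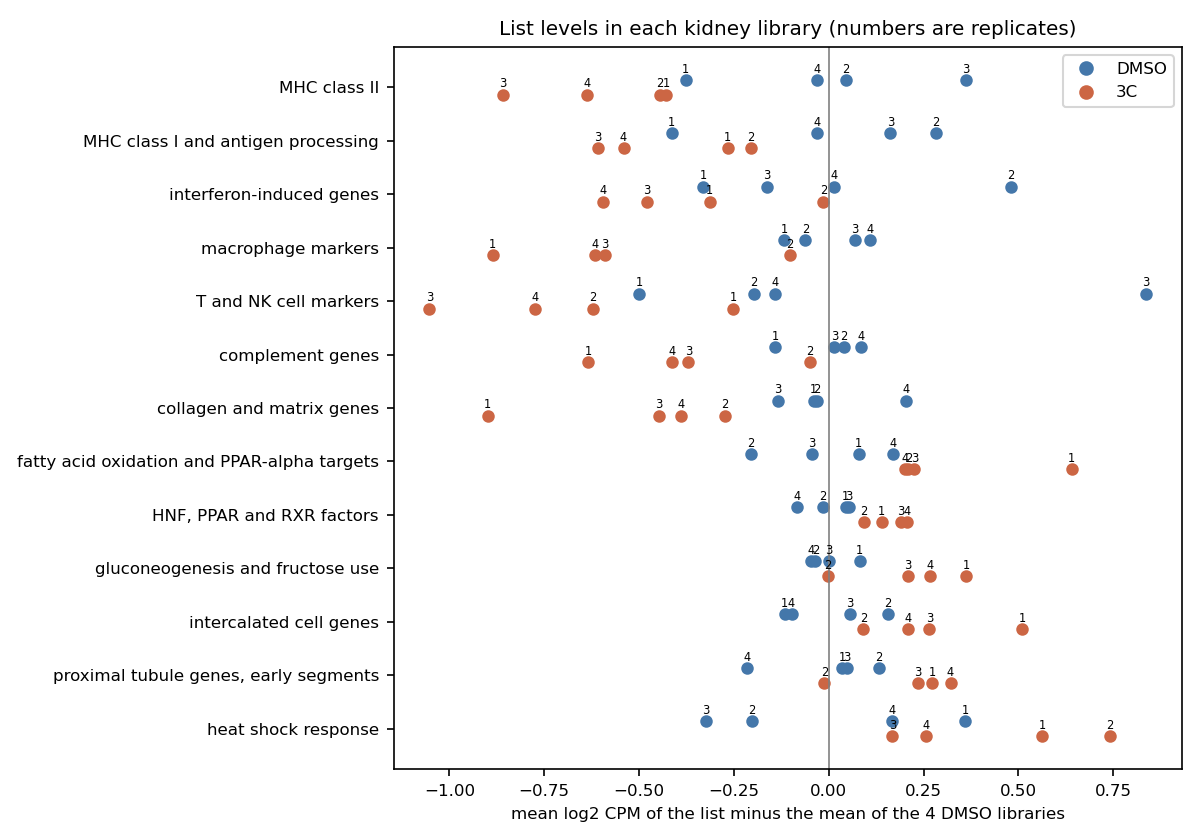
Mean log2 CPM of each of 13 gene lists in each kidney library, set to 0 at the mean of the 4 DMSO libraries. Points are libraries, numbered by replicate. The 4 3C libraries lie below all 4 DMSO libraries for MHC class II and for collagen and matrix genes, and above them for fatty acid oxidation and for HNF, PPAR and RXR factors, while 3C replicate 2 lies within the DMSO range for macrophage markers.

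Of the collagen and matrix genes 50% were apart between groups in the lower direction, against 3.84% of all genes. All 24 lay below 0, with a median of −0.48 (−28.1% in level), and 17 had an unadjusted p under 0.05. The groups did not overlap in 12 of 24, and DESeq2 called 10. Over all genes 7.09% were lower at an unadjusted p under 0.05 and DESeq2 called 1.20% lower. Col1a1, a chain of type I collagen, stood at 86.8, 96.5, 95 and 119.6 CPM in the DMSO libraries and 50.3, 75.97, 55.8 and 62.5 CPM in the 3C libraries (log2 fold change −0.70 ± 0.13; DESeq2 adjusted p = 0.000191). Col3a1, the chain of type III collagen, reached the DMSO range in 3C replicate 2 (125, 104, 93.6 and 153 CPM with DMSO and 40.02, 99.9, 68.9 and 73.8 CPM with 3C). Mgp, the matrix Gla protein that restrains calcification, stood at 349.8, 351, 328 and 399 CPM in the DMSO libraries and 182, 254, 250.3 and 257 CPM in the 3C libraries (log2 fold change −0.60 ± 0.11). Bgn, the proteoglycan biglycan, stood at 469.7, 476, 509.8 and 567 CPM in the DMSO libraries and 278, 426, 374 and 415 CPM in the 3C libraries (log2 fold change −0.44 ± 0.12), and the groups were apart in both. Decorin, encoded by Dcn, stood at 110.5, 77.98, 80.4 and 119.9 CPM in the DMSO libraries and 41.6, 70.9, 56.98 and 53.1 CPM in the 3C libraries (log2 fold change −0.80 ± 0.17), and fibronectin, encoded by Fn1, at 73.98, 77.6, 71.4 and 101 CPM with DMSO and 38.4, 61.3, 55.5 and 63.1 CPM with 3C (log2 fold change −0.57 ± 0.15).

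In some members of the list a single library set the value. Col4a1 stood at 368, 371, 367 and 392 CPM in the DMSO libraries and 250.4, 358, 362 and 368 CPM in the 3C libraries and Col18a1 at 417, 414, 403 and 436 CPM in the DMSO libraries and 299.6, 414, 412 and 407 CPM in the 3C libraries. In both, 3C replicate 1 alone was low and the other 3C libraries lay in the DMSO range or just under it, so their log2 fold changes (−0.16 ± 0.11 and −0.12 ± 0.10) rested on 1 library. The partner chain Col4a2 had the same single low library (261, 265, 260.1 and 283 CPM with DMSO and 178, 253, 272 and 261 CPM with 3C). Col15a1, also a collagen of basement membrane zones, was low in more than 1 library (61.7, 65.3, 53.9 and 74.6 CPM with DMSO and 36.1, 42.1, 44.2 and 57.8 CPM with 3C; log2 fold change −0.50 ± 0.14). Without the 3 libraries that stand apart, the list had a median of −0.43, 24 of 24 below 0 and 18 at an unadjusted p under 0.05. Of all genes 5.34% were lower at that threshold without these libraries.

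The genes with the smallest p among those lower with groups apart were H2-Aa and Inpp5d, given above, and Cpxm1, Islr, Tcf21, Mmp14, Sfrp5 and Marcksl1. Cpxm1, a secreted carboxypeptidase-like protein, stood at 27.2, 18.8, 19.7 and 24.9 CPM in the DMSO libraries and 11.6, 12.8, 12.2 and 13.2 CPM in the 3C libraries, the log2 fold change being −0.86 ± 0.12 (edgeR adjusted p = 0.138). Islr, a surface protein of stromal cells, stood at 15.2, 13.5, 13.4 and 18.3 CPM in the DMSO libraries and 8.85, 9.14, 9.62 and 9.09 CPM in the 3C libraries (log2 fold change −0.72 ± 0.12). Tcf21, a transcription factor of the kidney stroma and of podocytes, stood at 48.5, 39.9, 38.4 and 41.5 CPM in the DMSO libraries and 22.2, 22.6, 30.6 and 29.4 CPM in the 3C libraries (log2 fold change −0.68 ± 0.12). In all of these the 3C libraries kept below every DMSO library, and DMSO replicates 1 and 4 were the highest in the group of controls. Mmp14, the membrane-bound protease that activates Mmp2, stood at 59.5, 70.5, 72.9 and 79.2 CPM in the DMSO libraries and 45.9, 50.8, 46.7 and 54.4 CPM in the 3C libraries, and its substrate Mmp2 at 8.88, 10.2, 9.92 and 13.98 CPM with DMSO and 6.77, 8.17, 6.17 and 7.35 CPM with 3C. Sfrp5, a secreted WNT antagonist, stood at 8.18, 5.42, 6.53 and 10.5 CPM in the DMSO libraries and 2.73, 3.78, 2.94 and 3.44 CPM in the 3C libraries, at a log2 fold change of −1.25 ± 0.22, the furthest from 0 of the 16 genes chosen by smallest p. Marcksl1, a membrane-bound regulator of actin, stood at 42.7, 42.04, 43.3 and 41.5 CPM in the DMSO libraries and 31.5, 35.8, 33.2 and 30.9 CPM in the 3C libraries, with the DMSO libraries close together (log2 fold change −0.37 ± 0.06). The TGF-beta ligand Tgfb1, which drives matrix production, had levels of 44.02, 35.0, 39.7 and 38.3 CPM with DMSO and 25.8, 33.95, 32.4 and 31.6 CPM with 3C with no overlap, and the 13 TGF-beta target genes had a median of −0.20, with 11 below 0.

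Marker genes of fat and of the urothelium, tissues that border the kidney, had medians below 0 that depended on single libraries. In each list 1 member had an unadjusted p under 0.05 and none had groups apart. Over all genes 7.09% were lower at that threshold and 3.84% were apart in the lower direction. Of 10 fat cell markers 9 lay below 0 (median −0.60, −1.06 without 3C replicate 3 and −0.22 without 3C replicate 4), and their summed level was 130.1 to 306 CPM with DMSO and 95.9 to 256 CPM with 3C. Adipoq, the fat hormone adiponectin, stood at 13.3, 4.197, 17.6 and 20.7 CPM with DMSO and 9.202, 7.61, 12.4 and 1.98 CPM with 3C. Of 8 urothelial markers 8 lay below 0 (median −0.42, −0.65 without 3C replicate 1, −0.23 without 3C replicate 4 and −0.27 without DMSO replicate 4), with sums of 80.9 to 109.9 CPM with DMSO and 39.3 to 95.5 CPM with 3C. The part of these markers in the matrix result was not tested. Endothelial markers were all below 0 with a median of −0.15, which became −0.06 without 3C replicate 1 and −0.04 without the 3 libraries. Podocyte genes had a median of −0.16 with 11 of 14 below 0, but −0.08 without 3C replicate 1 and −0.11 without DMSO replicate 4. In 4 of the 14 the groups were apart in the lower direction, against 3.84% of all genes. At an unadjusted p under 0.05, 4 were lower, against 7.09% of all genes.

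Genes of fatty acid oxidation and PPAR-alpha targets were higher with 3C. None of the 30 lay below 0, the median log2 fold change was 0.22 (+16.7% in level), 14 had an unadjusted p under 0.05, the groups did not overlap in 8, and DESeq2 called 3. Over all genes these shares in the higher direction were 4.84%, 3.10% and 0.552%. Ppara, the receptor itself, stood at 108, 109, 93.6 and 87.96 CPM in the DMSO libraries and 184, 118, 129 and 144 CPM in the 3C libraries, with every 3C library above every DMSO library (log2 fold change 0.53 ± 0.13; DESeq2 adjusted p = 0.0107). Pdk4, the kinase that shuts pyruvate out of the citric acid cycle, stood at 53.6, 38.3, 49.1 and 60.7 CPM in the DMSO libraries and 81.6, 72.8, 105 and 82.3 CPM in the 3C libraries, also with no overlap (log2 fold change 0.76 ± 0.14; edgeR adjusted p = 0.138). Vnn1, a pantetheinase regulated by PPAR-alpha, stood at 68.2, 64.4, 65.1 and 70.9 CPM in the DMSO libraries and 127, 83.3, 83.6 and 82.5 CPM in the 3C libraries (log2 fold change 0.48 ± 0.13), and Angptl4, a secreted lipase inhibitor, at 19.6, 28.6, 36.5 and 56.3 CPM in the DMSO libraries and 117, 56.7, 57.9 and 58.8 CPM in the 3C libraries, where the DMSO libraries spread widely and DMSO replicate 4 nearly met the 3C libraries (log2 fold change 1.04 ± 0.31). Of the enzymes of the mitochondrial cycle, Acadvl (362, 337, 370.3 and 369 CPM with DMSO and 444, 387, 394 and 406 CPM with 3C), Hadhb (231, 209.8, 216 and 213 CPM with DMSO and 264, 235, 253 and 237 CPM with 3C) and Decr1 (172, 146, 158 and 164 CPM with DMSO and 217, 185, 176 and 185 CPM with 3C) were apart between groups by small amounts.

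Among the members of the list with the highest levels, Acadm and Ehhadh showed smaller differences. Acadm, the medium-chain dehydrogenase, stood at 1083, 967, 1086 and 1029 CPM in the DMSO libraries and 1253, 1009, 938 and 1010.4 CPM in the 3C libraries, with the groups overlapping (log2 fold change 0.02 ± 0.09), and it lay below 0 without 3C replicate 1. Ehhadh, a bifunctional enzyme of peroxisomes, stood at 556, 354, 399 and 512 CPM in the DMSO libraries and 671, 467, 474 and 445 CPM in the 3C libraries. Here 3C replicate 1, the library with the high Dbp, was the highest (log2 fold change 0.17 ± 0.16). Without that library the list's median was 0.14. Without the 3 libraries it was 0.19, with 25 of 30 above 0 and 9 at an unadjusted p under 0.05, where 3.78% of all genes were higher. Reads of Acaa1a and Acaa1b and of the Cyp4a genes can be shared between close copies.

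Among the factors of this program, the 16 HNF, PPAR and RXR genes had a median of 0.17, with 11 above 0. Of these 11, 6 had an unadjusted p under 0.05, where 4.84% of all genes were higher. Hnf4a, the main regulator of proximal tubule identity, overlapped at 781, 737, 662 and 643 CPM in the DMSO libraries and 867, 763, 708 and 828 CPM in the 3C libraries (log2 fold change 0.17 ± 0.09). Esrra, an activator of mitochondrial genes, stood at 219, 216, 210.5 and 205 CPM with DMSO and 258, 200.4, 196 and 214 CPM with 3C (log2 fold change 0.03 ± 0.08), and its coactivator Ppargc1a at 57.97, 85.2, 77.7 and 72.1 CPM with DMSO and 92.97, 79.9, 92.4 and 111 CPM with 3C. Without the 3 libraries the median was 0.17, but Esrra was below 0.

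Gpam had the smallest p of the genes higher with 3C. This enzyme attaches the initial fatty acid to glycerol in triglyceride synthesis, and it stood at 90.4, 109, 99.03 and 93.3 CPM in the DMSO libraries and 138, 136, 142 and 173 CPM in the 3C libraries (log2 fold change 0.59 ± 0.09, 1.51 times the DMSO level; edgeR adjusted p = 0.138, DESeq2 adjusted p = 3.13e-06). Fnip2, a partner of folliculin in nutrient sensing, stood at 62.2, 62.95, 59.4 and 66.9 CPM in the DMSO libraries and 115, 76.3, 90.5 and 94.5 CPM in the 3C libraries (log2 fold change 0.58 ± 0.11). Foxo3, a transcription factor held back by insulin signalling, stood at 25.4, 34.5, 29.2 and 31.8 CPM in the DMSO libraries and 55.3, 45.1, 41.8 and 44.2 CPM in the 3C libraries (log2 fold change 0.63 ± 0.11). In all of these the lowest 3C library lay above the highest DMSO library, and for Fnip2 and Foxo3 3C replicate 1 was the highest. Leaving out the 3 libraries that stand apart gave log2 fold changes of 0.59 for Gpam, 0.43 for Fnip2 and 0.41 for Foxo3.

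Rora, Ptch1, Grb7 and Gc, also named for their small p, had smaller differences. Rora, a nuclear receptor that activates Arntl, stood at 42.5, 41.9, 40.1 and 44.2 CPM in the DMSO libraries and 55.1, 57.8, 55.7 and 51.3 CPM in the 3C libraries, and unlike the clock genes it did not set 3C replicate 1 apart (log2 fold change 0.38 ± 0.06). Ptch1, the hedgehog receptor, stood at 45.1, 49.3, 49.5 and 49.99 CPM in the DMSO libraries and 61.3, 56.7, 64.5 and 63.2 CPM in the 3C libraries (log2 fold change 0.34 ± 0.06). Grb7, an adaptor of receptor tyrosine kinases, stood at 169.7, 163, 170.2 and 174 CPM in the DMSO libraries and 195, 214, 206 and 206 CPM in the 3C libraries (log2 fold change 0.28 ± 0.05). Gc, the vitamin D binding protein, stood at 87.2, 118, 105 and 97.5 CPM in the DMSO libraries and 131, 141, 139.9 and 136 CPM in the 3C libraries (log2 fold change 0.43 ± 0.08), and none of these overlapped.

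Genes of the early proximal tubule and of glucose production lay slightly above 0, while those of the late segment did not. All 21 genes of the early proximal tubule were above 0, with a median of 0.13, and of 0.23 without the 3 libraries. At an unadjusted p under 0.05 there were 4, against 4.84% of all genes higher. The groups were apart in 1, a share near the 3.10% of all genes. Of the 12 tested genes of the late segment 8 lay below 0 (median −0.02, and −0.07 without the 3 libraries). Slc34a1, the sodium-phosphate cotransporter, stood at 3992, 4249, 3986 and 3681 CPM with DMSO and 5080.3, 3703, 4329.8 and 4812 CPM with 3C, Miox, which breaks down inositol, at 2069, 2099, 1882 and 1758 CPM with DMSO and 2224, 1564, 2267 and 2226 CPM with 3C, and Lrp2 at 2874, 2515, 2624 and 2243 CPM with DMSO and 2528, 2771, 2756 and 2797 CPM with 3C. These overlapped, 3C replicate 2 being the lowest of the 3C group in Slc34a1 and Miox. Slc5a12, a lactate transporter (182, 327, 270.3 and 165 CPM with DMSO and 446, 250.1, 338 and 397 CPM with 3C), had the largest log2 fold change of the 21 (0.60 ± 0.22).

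All 12 genes of gluconeogenesis and fructose use were above 0 (median 0.20, 5 at an unadjusted p under 0.05, none with groups apart). Over all genes 4.84% were higher at that threshold and 3.10% were apart in the higher direction. Pck1, the gate of glucose production, stood at 1985, 1445, 1922 and 2312 CPM in the DMSO libraries and 2946, 2002, 2933 and 2799 CPM in the 3C libraries (log2 fold change 0.48 ± 0.15), with 3C replicate 2 inside the DMSO range and the other 3C libraries above it. Fbp1, a later enzyme of the same route (829, 775, 784 and 739 CPM with DMSO and 984, 799, 886 and 908 CPM with 3C), differed less (log2 fold change 0.19 ± 0.07). All 13 intercalated cell genes, which serve acid secretion in the collecting duct, were above 0, with a median of 0.25. Of these, 7 had an unadjusted p under 0.05 and 2 had groups apart, against the same 4.84% and 3.10% of all genes. Foxi1, the factor that specifies these cells, stood at 26.4, 39.5, 36.9 and 35.7 CPM in the DMSO libraries and 56.9, 43.7, 49.7 and 46.1 CPM in the 3C libraries (log2 fold change 0.51 ± 0.12; DESeq2 adjusted p = 0.0165). The proton pump subunits Atp6v0a4 (283, 296, 265 and 269 CPM with DMSO and 354, 284, 319 and 332 CPM with 3C) and Atp6v1b1 (164, 191, 184 and 174 CPM with DMSO and 256, 178, 192 and 206 CPM with 3C) and the ammonia channel Rhcg (184, 201, 190.1 and 199.5 CPM with DMSO and 254, 191, 212 and 208 CPM with 3C) were highest in 3C replicate 1 and overlapped. The medians of the 2 lists without the 3 libraries were 0.18 and 0.15, with all members still above 0. There 2 of 12 and 1 of 13 had an unadjusted p under 0.05, against 3.78% of all genes higher at that threshold.

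Heat shock genes, the chaperones that refold proteins, had a median of 0.33, with 16 of 18 above 0. Of the 18, 10 had an unadjusted p under 0.05, yet the groups overlapped in all 18. Over all genes 4.84% were higher at that threshold and 3.10% were apart in the higher direction. Hspa1a, an inducible HSP70, stood at 145, 46.4, 29.9 and 78.3 CPM in the DMSO libraries and 383, 327, 102 and 153 CPM in the 3C libraries, a spread of several fold within each group, and its counts are uncertain because Hspa1b is a near-identical copy. Hsp90aa1, the inducible HSP90, stood at 536, 375, 386 and 484 CPM in the DMSO libraries and 573, 808, 530 and 555 CPM in the 3C libraries (log2 fold change 0.47 ± 0.15). Hsp90ab1 stood at 1527, 1109.6, 1142 and 1429 CPM in the DMSO libraries and 1664, 2035, 1441 and 1490.4 CPM in the 3C libraries and Hspa8, the constitutive HSP70, at 2613, 1695, 1860.2 and 2813 CPM in the DMSO libraries and 2663, 3229.6, 2417 and 2445 CPM in the 3C libraries (log2 fold changes 0.35 ± 0.13 and 0.26 ± 0.16). In Hsp90aa1, Hsp90ab1 and Hspa8, DMSO replicates 2 and 3 were the lowest and 3C replicate 2 the highest, and DESeq2 called no member. Without the 3 libraries the median was 0.33.

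Several housekeeping and nephron lists stood near 0. The 75 nuclear-encoded oxidative phosphorylation genes had a median of 0.04, the 76 cytosolic ribosomal proteins 0.02, the 31 proteasome subunits −0.01, and the 13 thick ascending limb genes −0.04. In all, 21 of 60 lists had a median within 0.1 of 0. Cholesterol synthesis genes lay below 0 in 21 of 23 (median −0.24, −0.12 without the 3 libraries). Of these, Mvd, an enzyme of the mevalonate route, stood at 71.7, 69.2, 68.5 and 63.9 CPM in the DMSO libraries and 50.6, 51.2, 50.2 and 59.3 CPM in the 3C libraries, with no overlap. Cell division genes lay below 0 in 17 of 20 (median −0.38, and −0.22 without DMSO replicate 3), while in liver 4 of 16 did (median 0.14).

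The question whether 3C moved genes that differ with age was asked with lists from untreated kidney, which share no library with the comparison of 3C and DMSO. Old against young kidney gave 823 genes higher (5.68% of 14495 tested with edgeR, adjusted p under 0.05 and a fold above 2) and 59 lower (0.407%, a fold below 0.5). Of the genes higher with age 803 were tested here, and 706 (87.9%) lay below 0 with 3C, against 48.6% of all genes. Their median was −0.41, 315 (39.2%) were lower at an unadjusted p under 0.05 against 7.09% of all genes, and in 129 (16.1%) every 3C library lay below every DMSO library against 3.84% of all genes. Their mean log2 CPM was 2.77, 2.94, 3.19 and 3.00 in the DMSO libraries and 2.53, 2.83, 2.51 and 2.53 in the 3C libraries, so that 3C replicate 2 lay above DMSO replicate 1 and the other 3C libraries below all DMSO libraries. Of the 158 genes that DESeq2 called lower with 3C, 83 were among the 803, which is 52.5% of the former and 10.3% of the latter, where DESeq2 called 1.20% of all genes lower and 5.68% of all genes were higher with age.

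The 96 genes of the 803 on an immune list had a median of −0.50, with 93 below 0. Of all 13981 tested genes on none of the lists, 48.4% lay below 0 and 3.69% were apart in the lower direction. The 661 genes of the 803 on none of the lists had a median of −0.38, with 575 (87.0%) below 0 and 107 (16.2%) apart in the lower direction. These unlisted genes are not free of immune cell genes, since they include leukocyte genes such as Coro1a (−0.66), Dock2 (−0.71) and Vav1 (−0.67, all log2 fold changes), and how far the lower levels reach beyond immune cells was not tested. With the 3 libraries left out, 669 of 801 (83.5%) of the genes higher with age lay below 0, at a median of −0.33, where 813 of 15232 genes (5.34%) were lower and 576 (3.78%) higher at an unadjusted p under 0.05. Of these 801 genes, 244 were lower at that threshold.

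Of the 56 genes lower with age that were tested, 13 were higher at an unadjusted p under 0.05, against 4.84% of all genes. The 56 had a median of 0.12, with 39 above 0. Without 3C replicate 1 this median was 0.03 and without the 3 libraries 0.02. At the adjusted p alone, 484 genes were lower with age and 420 of them lay above 0 with 3C, at a median of 0.13 and of 0.10 without the 3 libraries. Pck1 had a log2 fold change of −1.59 with age and 0.48 with 3C, Pdk4 −1.25 and 0.76, and Gpam −0.67 and 0.59. For Cd74 the values were 2.13 and −0.57, for H2-Aa 2.26 and −0.58, and for Lyz2 3.54 and −0.76. By contrast Tcf21, Col1a1 and Foxo3 were not called with age (log2 fold changes −0.11, 0.42 and −0.52).

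**Figure D4:**
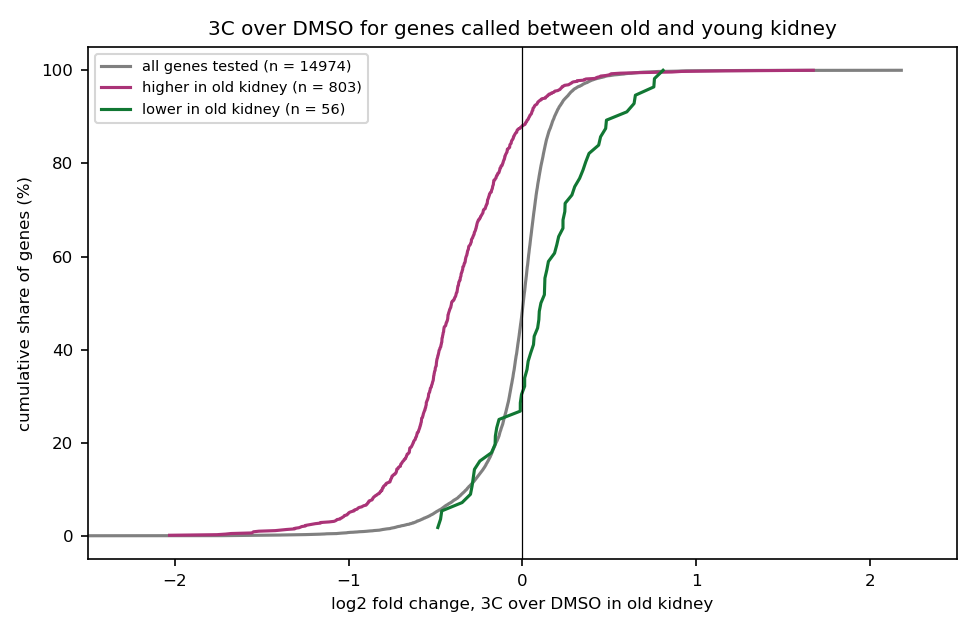
Cumulative share of genes in percent against the log2 fold change of 3C over DMSO in old kidney, for all 14974 genes tested, the 803 higher and the 56 lower in old than in young untreated kidney. At 0 the line of the genes higher with age has reached 87.9% and that of all genes 48.6%. Genes beyond ±2.5 are not drawn.

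The same treatment in old liver was used to ask whether the effect of 3C differs between tissues. Whether kidney and liver libraries of the same number came from the same mouse is not given in the sources used here. The interaction of tissue and treatment was called in 0 of 15526 genes (0%) by edgeR, with 554 (3.57%) at an unadjusted p under 0.05, and in 0 by DESeq2, with 644 at an unadjusted p under 0.05. In liver the median of MHC class II genes was −0.53, of T and NK cell markers −0.68, of macrophage markers −0.33 and of fatty acid oxidation genes 0.24. The collagen and matrix list had a median of −0.16 in liver, complement genes −0.03 and cholesterol synthesis 0.31, and no test of these list differences was made. For single genes the kidney value is given before the liver value, on the log2 fold change scale. They were −0.58 and −0.60 for H2-Aa, −0.57 and −0.59 for Cd74, 0.53 and 0.68 for Ppara, and 0.58 and 0.58 for Fnip2. Gpam (0.59 and 0.17) and Col1a1 (−0.70 and −0.15) were nearer to 0 in liver, and neither difference passed the interaction test. The genes that were higher with age in kidney had a median of −0.21 in liver.

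**Figure D5:**
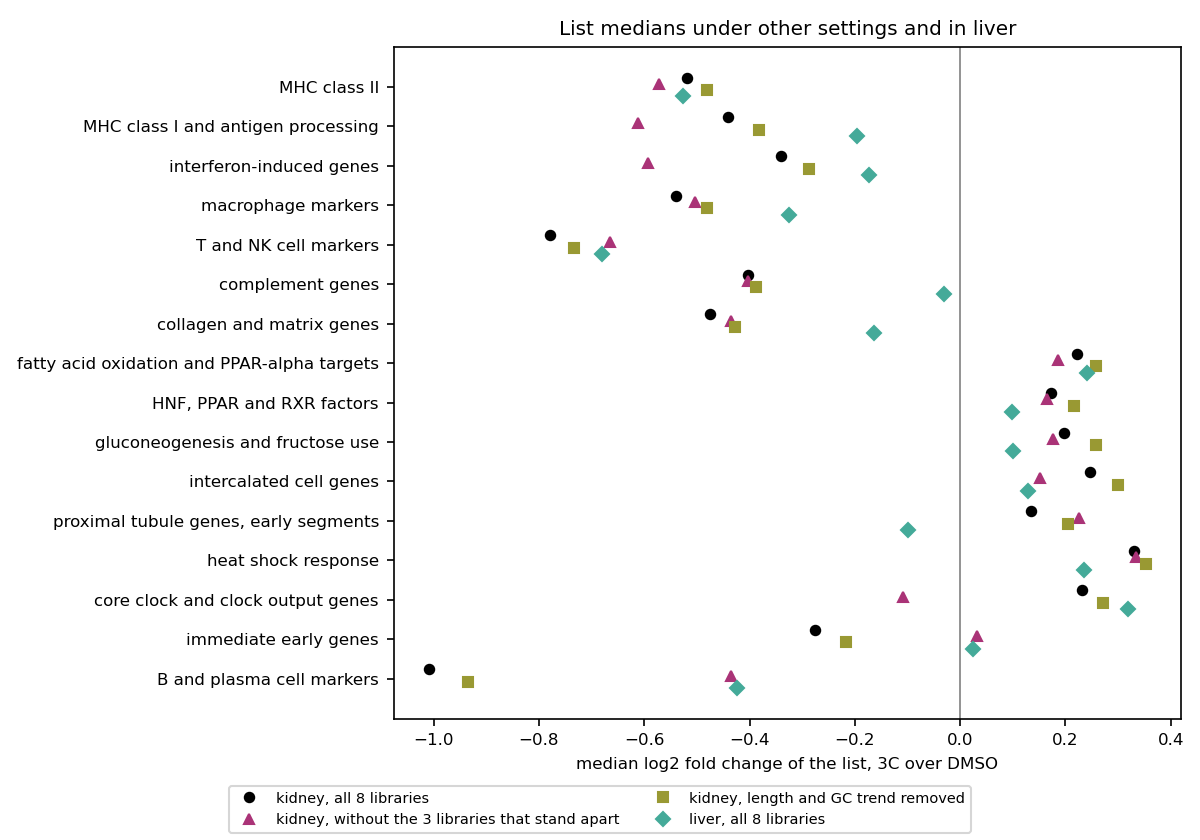
Median log2 fold change of 3C over DMSO for 16 gene lists, with all 8 kidney libraries, without the 3 libraries that stand apart, with the trend in length and GC removed, and in liver. The medians of the immune lists plotted and of collagen and matrix genes lie below 0 in each setting, and those of fatty acid oxidation lie above 0, while clock genes (0.23 to −0.11) and immediate early genes (−0.28 to 0.03) cross 0 without the 3 libraries.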

How the data were processed

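Per the submitters' processing notes and the study's methods, the tools behind the files were Trimmomatic 0.39 for trimming, HISAT2 2.2.1 for alignment (mm10) and HTSeq 0.12.4 for counting. The values that the authors deposited are raw counts per gene, and lines that name no gene (17.0% to 19.1% of reads outside genes among them) were left out of library sizes and tests. Genes passing edgeR's filterByExpr (minimum count 10) were scaled by TMM and tested with edgeR 4.0.16 (R 4.3.3) by the quasi-likelihood test, with Benjamini-Hochberg adjusted p under 0.05 as the call. DESeq2 1.42.0, another scaling, other filters, covariates and left-out libraries were alternatives. Old against young kidney was fitted likewise, with a fold of 2 added. The script was tested on simulated data. Named genes were the 8 with the smallest p in each direction among those with groups apart, and the 3 most abundant members of 9 lists. All members and lists were chosen with earlier results of these data known. Some genes that this rule names are not reported here.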

Additional observations from a re-analysis of the deposited data

Results flagged for a closer look

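Dixon's test for a library far from the other 3 of its group was run on 234 groups of values and passed in 35 (15.0%), where chance gives about 1 in 20 groups. Of these 35, 12 came from genes shown because they set 1 library apart, so the share cannot be read against chance for them. Among the other 208 groups 23 passed (11.1%). No explanation was weighed.

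In DMSO replicate 1 the immediate early genes were highest (mean log2 CPM 5.37), as were Nr4a1 (135 CPM), Fos (28.5 CPM), Egr1 (106 CPM) and Fosb (12.5 CPM), while Xist (371 CPM) and Ptch1 (45.1 CPM) were lowest. In DMSO replicate 2 fatty acid synthesis genes were lowest (mean log2 CPM 6.72). In DMSO replicate 3 Jchain (312 CPM) and Ccl5 (25.1 CPM) were highest. In DMSO replicate 4 the urothelial markers (mean log2 CPM 3.57), the mitochondrial ribosomal proteins (5.64) and Col4a1 (392 CPM) were highest, and the neutrophil markers were lowest (mean log2 CPM 0.426).

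In 3C replicate 1 the clock genes (mean log2 CPM 5.602), the fatty acid oxidation genes (7.88), Dbp (138 CPM), Per3 (86.6 CPM), Ciart (16.4 CPM), Ccl5 (9.32 CPM) and Ehhadh (671 CPM) were highest. The same library was lowest for podocyte genes (mean log2 CPM 5.21), Col18a1 (299.6 CPM), Col4a1 (250.4 CPM) and Lrp2 (2528 CPM). In 3C replicate 2 the genes higher in old kidney (mean log2 CPM 2.83), H2-Aa (268 CPM), C1qa (87.0 CPM) and Hsp90aa1 (808 CPM) were highest, and the phosphate, calcium and vitamin D genes (mean log2 CPM 7.01), Pck1 (2002 CPM) and Miox (1564 CPM) were lowest. In 3C replicate 3 the inflammation genes named in the study were lowest (mean log2 CPM 3.69) and Fosb was highest (1.41 CPM). In 3C replicate 4 Gpam was highest (173 CPM).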

How the results depend on the processing

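DESeq2 called 158 genes lower and 73 higher where edgeR called 0, and without the 3 libraries that stand apart, an alternative chosen after seeing the data, it called 37 and 15 (588 and 424 at an unadjusted p under 0.05). Leaving out each library in turn gave 0 to 25 genes lower and 0 to 4 higher, and 0 to 1 genes in the test of kidney against liver, the 1 being without liver DMSO replicate 4. Removing the trend over length and GC content gave 1088 genes higher at an unadjusted p under 0.05. The log2 fold change of Acadm turned to −0.018 without DMSO replicate 2, −0.074 without 3C replicate 1 and −0.013 without the 3 libraries by either tool, and that of Esrra to −0.058 without 3C replicate 1, −0.043 without the 3 libraries and −0.042 with DESeq2 there. Over the left-out libraries Acadm ranged from −0.074 to 0.068 and Esrra from −0.058 to 0.079. The cause was not tested. The replicate numbers did not pair the DMSO and 3C samples of kidney (correlations of deviations for the same number −0.078, 0.018, −0.082 and −0.082), and a replicate block gave 0 calls in either direction, with 593 genes higher and 943 lower at an unadjusted p under 0.05. Kidney and liver libraries of the same number correlated at 0.00423 to 0.194, not all above 0.1, and the block gave 0 calls in the test between tissues as well.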

Other observations

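The medians of some other groups of genes depended on single libraries. The 15 tested cell-cycle inhibitors and secreted senescence genes (of 16 listed) all lay below 0 with 3C (median −0.27, −0.14 without 3C replicate 1, −0.17 without DMSO replicate 1, −0.46 without 3C replicate 2, and −0.16 without the 3 libraries that stand apart), with 4 lower at an unadjusted p under 0.05 (against 7.09% of all genes) and 4 with groups apart (against 3.84% of all genes). Of 16 tubule injury genes 14 lay below 0 (median −0.19, −0.09 without DMSO replicate 4, −0.30 without 3C replicate 2, and −0.21 without the 3 libraries). Targets of xenobiotic receptors, which clear foreign compounds, lay above 0 in 10 of 13 tested and 18 listed (median 0.20, 0.12 without 3C replicate 1, and 0.27 without the 3 libraries). The 20 genes of the tricarboxylic acid cycle lay above 0 in 17 (median 0.06, and 0.11 without 3C replicate 2), with 5 higher at an unadjusted p under 0.05 (against 4.84% of all genes).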
